A study of Homo sapiens with 12 samples.

Results

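The TNF receptor superfamily members examined here were 10 genes, TNFRSF8, CD40, TNFRSF11A, TNFRSF9, FAS, TNFRSF1A, TNFRSF1B, TNFRSF13C, TNFRSF17 and TNFRSF13B. They were the rows of the deposited expression table that carried these symbols, 10 of 26210 gene rows, and each was followed across 12 libraries. RNA-Seq of ribosome-depleted total RNA was performed on 5 human lymphoid cell lines, with 2 libraries for each of 6 groups. KM-H2, L1236 and L428 are Hodgkin lymphoma lines, grown in IMDM without further treatment. Namalwa, a Burkitt lymphoma line, and Reh, labelled as a pro-B lymphoblastic leukemia line, were the untreated B-cell controls and were grown in RPMI. Between Hodgkin and control lines, the medium and the kind of line therefore cannot be told apart. The last group was Reh treated with PMA (phorbol myristate acetate, an activator of protein kinase C) at 2 ng/ml, and the length of this treatment is not given for these libraries in the sources used here. All groups are cultured lines, so each group stands for 1 line and the 2 libraries of a group may be technical duplicates. The p-values therefore measure the spread between such duplicates. The design asks which genes separate the Hodgkin lines from the B-cell controls, and which of them an inflammatory stimulus changes in Reh.

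TNF receptors are membrane proteins that bind trimeric ligands of the TNF family. Their cytoplasmic tails recruit TRAF adaptors, which lead to the kinases that activate NF-kappaB, or, in the receptors with a death domain such as FAS and TNFRSF1A, adaptors such as FADD and TRADD that can lead to caspase activation. TNFRSF8 encodes CD30, a diagnostic marker of Hodgkin/Reed-Sternberg cells. CD40 is the receptor through which T cells help B cells, TNFRSF11A encodes RANK, and TNFRSF9 encodes the costimulatory receptor CD137. TNFRSF13C (BAFF receptor), TNFRSF17 (BCMA) and TNFRSF13B (TACI) bind the B-cell survival factors BAFF and APRIL.

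The 10 genes lie on 8 chromosomes in hg19. TNFRSF8 (chr1:12123360-12204264, plus strand) and TNFRSF1B (chr1:12227048-12269285, plus strand) are neighbours, 22783 bases apart with no protein-coding gene between them, and the first was higher and the second lower in the Hodgkin lines than in the controls. TNFRSF9 lies on the same chromosome on the minus strand (chr1:7975931-8003225). CD40 is at chr20:44746910-44758502, TNFRSF11A at chr18:59992520-60058521, FAS at chr10:90750414-90775542 and TNFRSF17 at chr16:12059067-12061925, all on the plus strand. TNFRSF1A (chr12:6437923-6451280), TNFRSF13C (chr22:42318036-42322810) and TNFRSF13B (chr17:16833130-16875432) are on the minus strand.

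RefSeq promoter windows were found for 7 of the 10 genes, and the 3 sequences below are the bases upstream of the annotated start of the neighbouring pair TNFRSF8 and TNFRSF1B and of TNFRSF11A, the gene with the widest range among the Hodgkin lines. Each sequence matched hg19 once and is written 5′ to 3′ on the plus strand, TNFRSF8 at chr1:12123110-12123359, TNFRSF1B at chr1:12226798-12227047 and TNFRSF11A at chr18:59992293-59992519. Bases of these 3 windows that fall in an exon are left out.
TNFRSF8: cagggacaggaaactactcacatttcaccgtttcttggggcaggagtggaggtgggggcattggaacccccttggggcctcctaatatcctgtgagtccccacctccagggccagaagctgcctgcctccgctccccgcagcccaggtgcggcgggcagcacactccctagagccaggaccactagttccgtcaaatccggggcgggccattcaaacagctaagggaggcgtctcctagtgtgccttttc
TNFRSF1B: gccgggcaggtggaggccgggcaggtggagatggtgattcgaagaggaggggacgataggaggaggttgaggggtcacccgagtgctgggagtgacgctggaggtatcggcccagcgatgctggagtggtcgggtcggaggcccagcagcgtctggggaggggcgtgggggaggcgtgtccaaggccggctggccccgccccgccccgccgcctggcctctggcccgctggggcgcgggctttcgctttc
TNFRSF11A: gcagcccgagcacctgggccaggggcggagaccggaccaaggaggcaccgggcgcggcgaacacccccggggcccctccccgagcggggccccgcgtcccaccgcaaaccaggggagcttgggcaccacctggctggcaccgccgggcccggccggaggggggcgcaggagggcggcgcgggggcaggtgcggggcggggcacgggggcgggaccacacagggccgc
Their GC contents were 61.6%, 72.4% and 81.9%, respectively. The gene-level values do not tell from which start the RNA of a gene was made. Windows of all 7 genes were searched on both strands for the NF-kappaB consensus and for TGANTCA, the AP-1 type element, which reads the same on either strand. Matches were found in windows of TNFRSF9 and FAS, and none in those of TNFRSF8, TNFRSF1B, TNFRSF11A, TNFRSF1A and TNFRSF13B. All matches found are shown, and their part in the levels was not tested. CD40, TNFRSF13C and TNFRSF17 had no window and were not searched. Capitals mark the match with its flanking bases in lower case.
TNFRSF9 NF-kappaB consensus: gctgtggtGGGAATTTCCCatgagacc
TNFRSF9 TGANTCA: cccctggcTGAGTCAccgcactc
FAS TGANTCA: caagttgcTGAATCAatggagcc
FAS NF-kappaB consensus: tcgctggaGGGGGACCCCggttggag
The TNFRSF9 sequences lie on the minus strand at chr1:8000955-8000981 and chr1:8000929-8000951, where the matches end 64 and 38 bases before the RefSeq start, and the first holds overlapping matches on opposite strands. The FAS sequences are at chr10:90750305-90750327 and chr10:90751023-90751048 on the plus strand, ahead of separate RefSeq starts by 236 and 148 bases. Both TNFRSF9 sequences and the second FAS sequence lie inside their gene as annotated, and all 4 sequences lie in bases that the annotation places in an exon of some gene. Of 34788 windows of the same length, 9.95% held the NF-kappaB consensus and 6.59% held TGANTCA. A match is a run of letters and not a measured binding site.

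Levels are given in FPKM, fragments per kilobase of transcript, scaled to the mapped fragments of a library, so that they can be compared between genes, and the 2 values of a group are those of its first and second library. Of the 9 receptors tested, TNFRSF8 had the largest difference between the Hodgkin and control lines on the log2(FPKM + 1) scale, while by the ratio of mean FPKM TNFRSF9, which was at or near 0 in the controls, was further apart. It measured 28.3 and 20.1 FPKM in KM-H2, 30.6 and 19.1 in L1236, and 63.7 and 38.7 in L428. In Namalwa the values were 0.505 and 0.494, in Reh 0.0298 and 0.0882, and in PMA-treated Reh 0.0189 and 0.0178. Every Hodgkin library was above every other library, and the values in PMA-treated Reh were each the lowest step seen for this gene, which may be a single fragment. On the log2(FPKM + 1) scale the mean of the Hodgkin lines exceeded that of the untreated controls by 4.65 (SE 0.19, limma, adjusted p = 1.73e-07). The mean level in FPKM was 86.7-fold (KM-H2), 89.0-fold (L1236) and 183-fold (L428) that of the controls. In bulk RNA, fewer cells that carry a transcript and less transcript per cell cannot be told apart.

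**Figure D1:**
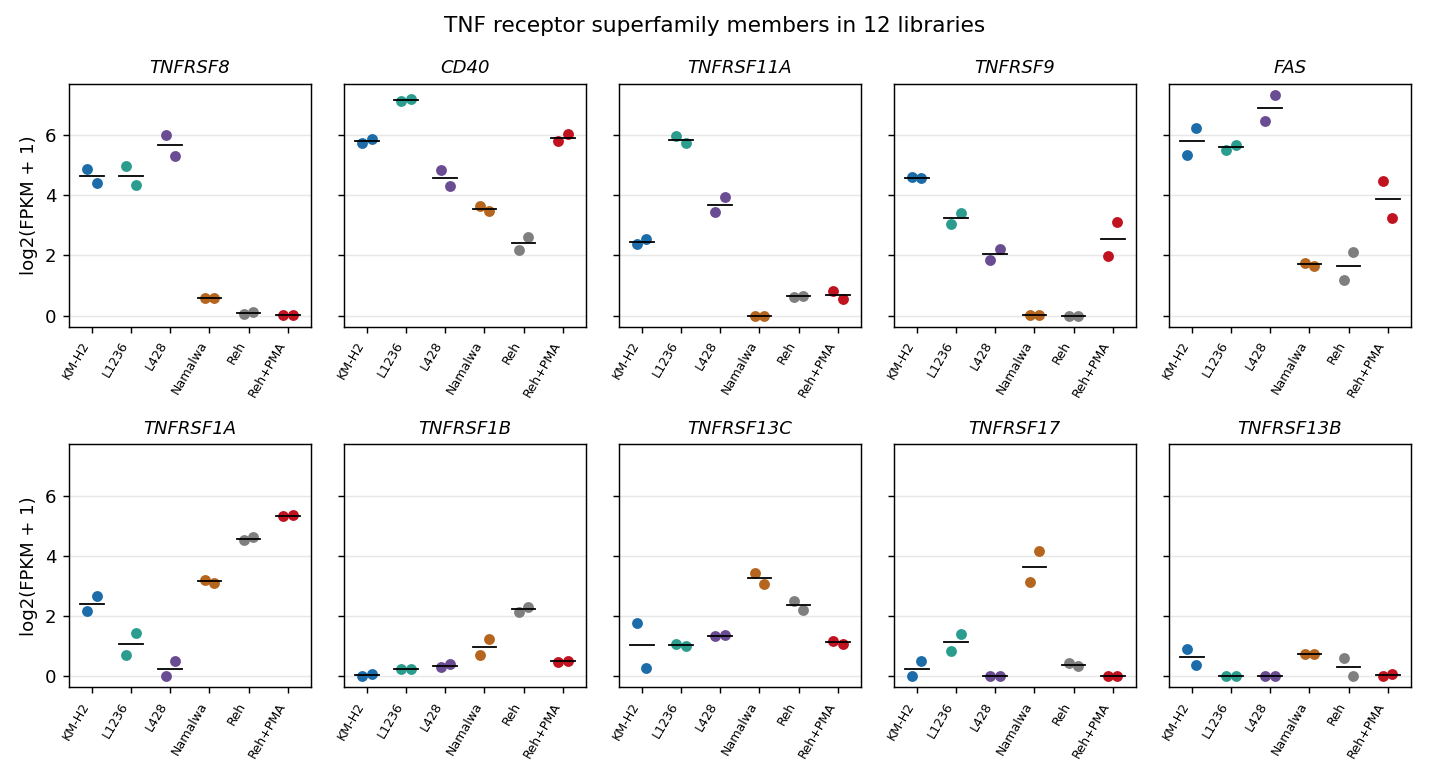
Level of each of the 10 receptor genes as log2(FPKM + 1), with a point for each of the 2 libraries and a bar for the mean of each group. TNFRSF8, CD40, TNFRSF11A, TNFRSF9 and FAS are high in the 3 Hodgkin lines, CD40, TNFRSF9 and FAS are also raised in PMA-treated Reh, and TNFRSF1A is highest in Reh with and without PMA.

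FAS, the death receptor CD95, was also high in all 3 Hodgkin lines. Its levels were 39.0 and 75.1 FPKM in KM-H2, 44 and 50.3 in L1236, and 88.0 and 161 in L428, against 2.35 and 2.16 in Namalwa and 1.26 and 3.29 in Reh. The Hodgkin and control libraries did not overlap, and the difference was 4.42 on the log2 scale (SE 0.32, adjusted p = 3.62e-06). The second library was the higher in each Hodgkin line, and the gap was wider in KM-H2 and L428 than in L1236.

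TNFRSF11A, the receptor of the osteoclast factor RANKL, was listed at 0 in both Namalwa libraries and stood at 0.533 and 0.589 FPKM in Reh. It reached 61.5 and 51.8 FPKM in L1236, 9.76 and 14.5 in L428, and 4.26 and 4.78 in KM-H2. All Hodgkin libraries were higher than all control libraries, by 3.68 on the log2 scale on average (SE 0.14, adjusted p = 1.18e-07).

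TNFRSF9 was listed at 0 in both Reh libraries and was at 0.0175 and 0.0198 FPKM in Namalwa, each the lowest step seen for this gene, which may be a single fragment. KM-H2 had 23.4 and 22.6 FPKM, L1236 7.24 and 9.67, and L428 2.64 and 3.62. The log2 difference of 3.27 (SE 0.22, adjusted p = 2.27e-06) is set partly by the pseudocount of 1, since the controls were at or near 0. KM-H2, the line with the highest TNFRSF9, also held 2 of 6 T and NK cell markers at a mean of 1 FPKM or more. These were CD3D at 13.5 and 22.5 FPKM and CD3G at 3.25 and 2.85. CD3E, CD2, CD7 and NKG7 had means below 1 FPKM in KM-H2, with CD7 listed at 0. The 6 markers had a summed level of 17.8 to 26.8 FPKM there. In the other 5 groups this sum lay between 0 and 12.7 FPKM. The part of these transcripts in the TNFRSF9 level was not tested.

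CD40 was present in every library, and differed least between the Hodgkin and control lines among the receptors that were higher. It measured 52.8 and 57.7 FPKM in KM-H2, 140 and 147 in L1236, and 27.9 and 18.9 in L428. Namalwa had 11.4 and 10.2 FPKM and Reh 3.57 and 5.08, so that the lowest Hodgkin library still exceeded the highest control library. The log2 difference was 2.88 (SE 0.15, adjusted p = 4.91e-07).

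The receptors for TNF itself ran the other way. TNFRSF1A, the widely expressed TNF receptor with a death domain, was at 22 and 23.7 FPKM in Reh and 8.28 and 7.56 in Namalwa. In the Hodgkin lines it fell to 3.48 and 5.39 FPKM in KM-H2, 0.644 and 1.74 in L1236, and 0 and 0.435 in L428. No Hodgkin library reached a control library, and the log2 difference was -2.61 (SE 0.19, adjusted p = 4.13e-06). Against Namalwa alone KM-H2 was not called (-0.74, limma, adjusted p = 0.0757), while L1236 (-2.07) and L428 (-2.90) were. TNFRSF1B, the TNF receptor that lacks a death domain, was low throughout. Its highest values were 3.40 and 3.95 FPKM in Reh, followed by 0.639 and 1.39 in Namalwa. The 6 Hodgkin libraries lay between 0 and 0.318 FPKM, all below the controls, with a log2 difference of -1.39 (SE 0.12, adjusted p = 9.28e-06). This 2-fold call rested on Reh, since against Namalwa alone the differences were -0.95 in KM-H2, -0.73 in L1236 and -0.62 in L428.

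Of the receptors for BAFF and APRIL, TNFRSF13C was lower in the Hodgkin lines, although L428 against Reh alone was not called (-1.01, adjusted p = 0.0735). It measured 9.93 and 7.36 FPKM in Namalwa and 4.70 and 3.62 in Reh, against 1.09 and 1.01 in L1236 and 1.53 and 1.57 in L428. In KM-H2 the duplicates were 2.43 and 0.221 FPKM, an 11-fold gap, so the level in this line is poorly fixed. The Hodgkin libraries all lay below the control libraries and the log2 difference was -1.67 (SE 0.26, adjusted p = 0.00053). TNFRSF17, a gene of germinal centre and plasma cells, was carried by Namalwa alone among the controls, at 7.71 and 17.0 FPKM against 0.373 and 0.257 in Reh. It was at 0.805 and 1.66 FPKM in L1236, at 0 and 0.411 in KM-H2, and listed at 0 in both L428 libraries. L1236 stood above Reh, so the Hodgkin and control lines overlapped, although the mean log2 difference of -1.56 passed (SE 0.21, adjusted p = 0.000235) and rested on Namalwa. Against Reh alone no Hodgkin line was called for TNFRSF17 (log2 differences -0.15 in KM-H2, 0.74 in L1236 and -0.39 in L428). TNFRSF13B never reached 1 FPKM and was the 1 member that did not enter the test. Its values were 0.893 and 0.288 FPKM in KM-H2, 0.688 and 0.686 in Namalwa, 0.517 and 0 in Reh, 0 and 0.0518 in PMA-treated Reh, and 0 in L1236 and L428. All 12 values were within 0.1 of a whole number of steps of the lowest value, at most 8, and differences in TNFRSF13B were not tested.

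Of the 9 receptors tested, 5 were called higher and 4 lower in the Hodgkin lines, where a call needs an adjusted p under 0.05 and at least a 2-fold change. In the same comparison 24.6% of all 14679 tested genes were called, 13.7% higher and 10.9% lower. TNFRSF8 and TNFRSF11A reached 1 FPKM in the 6 Hodgkin libraries alone, and TNFRSF1B in control libraries alone. They entered the test only through the lines where they are high. The members were also chosen with earlier results of these data known. The counts of calls, here and for each line, are therefore not a result about the family. Line means of TNFRSF8, CD40, TNFRSF11A, TNFRSF9 and FAS were higher in each Hodgkin line than in either control, a pattern shared by 17.9% of the tested genes, and those of TNFRSF1A, TNFRSF1B and TNFRSF13C were lower in each, as for 17.1%. Taking the line and not the library as the replicate, 3 lines against 2 cannot give a two-sided exact permutation p below 0.2. This value was found for all members except TNFRSF17 and TNFRSF13B, at p = 0.4 in the exact test.

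The Hodgkin lines were not alike in these receptors. Compared with the mean of the controls, 9 of 9 tested receptors were called in KM-H2, 8 of 9 in L1236 and 9 of 9 in L428, with the same 5 higher in each line. Of all genes, 30.4% were called in KM-H2 (16.8% higher, 13.5% lower), 29% in L1236 (15.7% higher, 13.3% lower) and 30% in L428 (16.2% higher, 13.8% lower). The exception was TNFRSF17 in L1236, where the log2 difference of -0.89 (95% interval -1.53 to -0.24, adjusted p = 0.0306) was less than 2-fold. TNFRSF1A in KM-H2 fell by 1.45 on the log2 scale, a call that did not hold with a pseudocount of 0.1 (log2 difference -1.61, adjusted p = 0.0552).

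**Figure D2:**
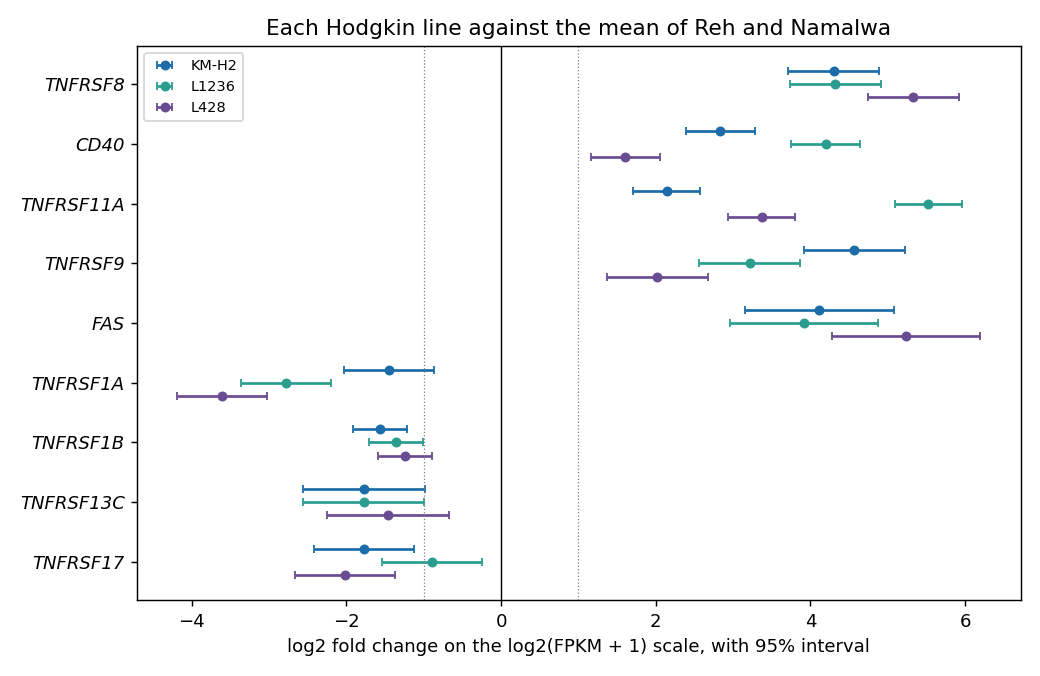
Log2 difference on the log2(FPKM + 1) scale of 9 receptors in each Hodgkin line from the mean of untreated Reh and Namalwa, with 95% intervals from the limma fit and dotted lines at a 2-fold change. TNFRSF8 spans 4.30 in KM-H2 to 5.33 in L428, and TNFRSF11A spans 2.14 in KM-H2 to 5.52 in L1236.

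Each line had its own leading receptors. L1236 was highest for CD40 and TNFRSF11A. Its TNFRSF11A exceeded that of L428 by 2.16 (adjusted p = 9.21e-05), and L428 exceeded KM-H2 by 1.23 (adjusted p = 0.00228), so all 3 lines differed on the log2 scale. For CD40 the order was L1236, PMA-treated Reh, KM-H2, L428, Namalwa and Reh, and all neighbours differed except PMA-treated Reh and KM-H2, which were 0.10 apart (adjusted p = 0.747). KM-H2 was highest for TNFRSF9, 1.35 above L1236 (adjusted p = 0.0117), while L1236, PMA-treated Reh and L428 were not shown to differ from their neighbour in that order. L428 was highest for TNFRSF8, 1.01 above L1236 (adjusted p = 0.0319), and L1236 and KM-H2 were 0.02 apart (adjusted p = 0.989). FAS was also highest in L428, but the gap of 1.121 to KM-H2 did not pass (adjusted p = 0.107).

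Among the receptors that were lower, TNFRSF1A had a graded order. PMA-treated Reh was followed by Reh, Namalwa, KM-H2, L1236 and L428, with a difference between Reh and Namalwa (1.42, adjusted p = 0.00668) and between KM-H2 and L1236 (1.33, adjusted p = 0.00673), while the other 3 neighbouring pairs were not shown to differ. For TNFRSF1B the step from Reh to Namalwa (1.24, adjusted p = 0.000759) was the only neighbouring pair that differed. For TNFRSF17 it was the step from Namalwa to L1236 (2.52, adjusted p = 0.000287). No neighbouring pair differed for TNFRSF13C, whose group means ran from 8.65 FPKM in Namalwa to 1.05 in L1236.

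PMA changed a subset of the same receptors in Reh. CD40 rose from 3.57 and 5.08 FPKM to 54.4 and 64.4, a 13.7-fold higher mean and close to its level in KM-H2. The log2 change was 3.51 (SE 0.23, adjusted p = 1.26e-05). TNFRSF9, listed at 0 in both untreated libraries, was at 2.95 and 7.69 FPKM after PMA (log2 change 2.55, SE 0.33, adjusted p = 0.000671). The duplicates of the treated cells differed, but both were far from the untreated ones. FAS went from 1.26 and 3.29 to 21.1 and 8.58 FPKM, and its log2 change of 2.22 (SE 0.49, adjusted p = 0.00903) rested on the duplicates: without the lower Reh library it was 1.76 (adjusted p = 0.0775), and without the higher treated library 1.62 (adjusted p = 0.0765).

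TNFRSF1B fell with PMA, from 3.40 and 3.95 to 0.388 and 0.436 FPKM (log2 change -1.73, SE 0.18, adjusted p = 0.000191). TNFRSF13C fell from 4.70 and 3.62 to 1.28 and 1.13 FPKM. Its log2 change of -1.22 was just past the threshold (adjusted p = 0.0460) and was lost when any library of Reh with or without PMA was left out (adjusted p = 0.110 to 0.204), as well as any library of L1236, L428 or Namalwa (adjusted p = 0.0572 to 0.0592). The remaining 4 receptors did not pass. TNFRSF8 stayed below 0.1 FPKM with and without PMA (log2 change -0.06, 95% interval -0.74 to 0.62), and TNFRSF11A was at 0.760 and 0.484 FPKM after PMA (0.05, -0.45 to 0.55). TNFRSF1A measured 39.3 and 39.7 FPKM after PMA, above both untreated libraries, with a log2 change of 0.76 (0.10 to 1.43, adjusted p = 0.0785). TNFRSF17 was listed at 0 in both treated libraries (-0.39, -1.14 to 0.35).

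In total 3 receptors were higher and 2 lower of 9 tested, where 22.2% of all genes were called, 10.5% higher and 11.8% lower. The treated libraries also stood apart in the median level of 83 ribosomal protein genes, which was 262 to 630 FPKM in both of them and in 1 library each of L1236 and L428, and 1193 to 2161 FPKM in the other 8 libraries. Since both treated libraries were low and both untreated ones high, this property and the treatment cannot be told apart. The summed level of 5 precursor B-cell markers was 1111 to 1197 FPKM in Reh and 124 to 130 FPKM after PMA, with VPREB1 listed at 0 in both, while that of 8 B-lineage markers was 1007 to 1079 and 1116 to 1359 FPKM. The members of the latter list moved apart, since mean CD79A went from 382 to 1024 FPKM, whereas CD79B went from 404 to 62.6, BLNK from 65.2 to 1.79, PAX5 from 58.3 to 14.3 and EBF1 from 74.5 to 19.7 FPKM. Markers of other cells moved too. Mean CSF1R went from 0.244 to 11.5 FPKM and NKG7 from 2.96 to 10.4, while MPO went from 28.4 to 5.72. The part of this in the receptor values was not tested.

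**Figure D3:**
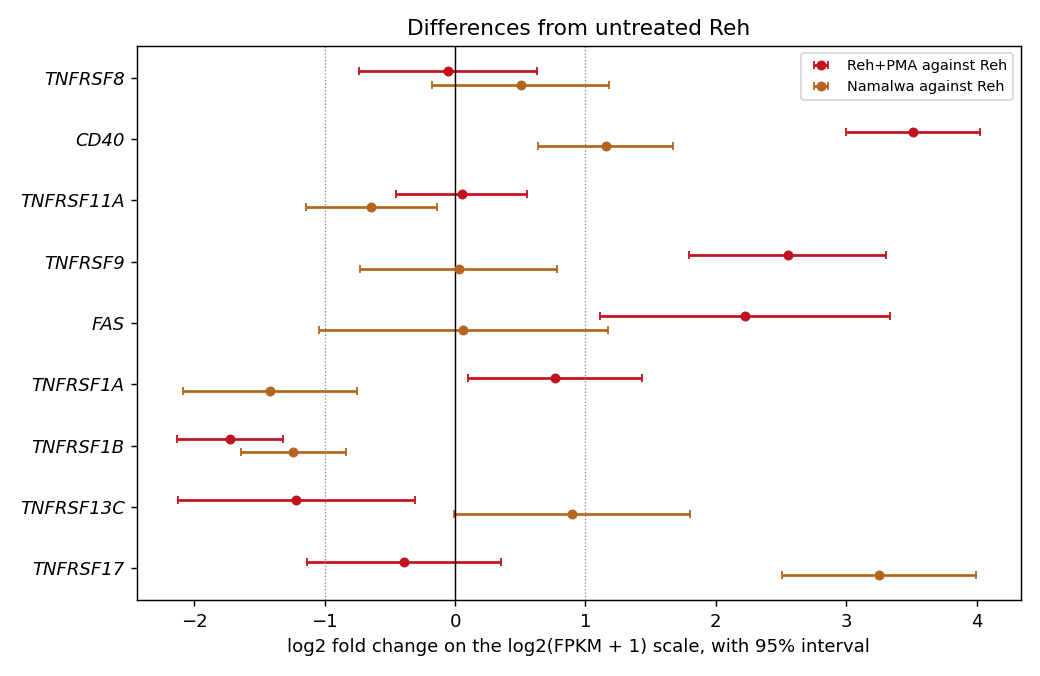
Log2 difference from untreated Reh of 9 receptors in PMA-treated Reh and in Namalwa, on the log2(FPKM + 1) scale with 95% intervals and dotted lines at a 2-fold change. CD40, TNFRSF9 and FAS lie to the right after PMA, TNFRSF17 lies to the right in Namalwa, and TNFRSF1B lies to the left in both.

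The control lines themselves differed in 4 of 9 receptors, 2 higher and 2 lower in Namalwa, beside 19% of all genes, 7.5% higher and 11.5% lower. Namalwa was higher than Reh in TNFRSF17 (log2 difference 3.25, SE 0.33, adjusted p = 7.79e-05) and in CD40 (1.15, SE 0.23, adjusted p = 0.00498). It was lower in TNFRSF1A (-1.42, SE 0.30, adjusted p = 0.00668) and TNFRSF1B (-1.24, SE 0.18, adjusted p = 0.000759). CD40 did not pass without the lower Reh library (0.95, adjusted p = 0.0570), TNFRSF1A did not pass without the higher Reh library (-1.37, adjusted p = 0.0504), and TNFRSF1B was less than 2-fold without the lower Namalwa library (-0.97). TNFRSF8, TNFRSF11A, TNFRSF13C, TNFRSF9 and FAS did not pass, with log2 differences of 0.50, -0.64, 0.90, 0.03 and 0.06. On a pseudocount of 0.1, which gives more weight to values near 0, TNFRSF8 was higher (1.94, adjusted p = 0.00466) and TNFRSF11A lower in Namalwa (-2.72, adjusted p = 0.000209), while TNFRSF1A no longer passed (-1.52, adjusted p = 0.163).

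The labels of the lines were checked against marker genes. In Namalwa, labelled as Burkitt lymphoma, 4 of 5 precursor B-cell markers reached a mean of 1 FPKM, with a summed level of 128 to 136 FPKM. In Reh the myeloid marker MPO was at 24.8 and 32.0 FPKM. All 7 Hodgkin/Reed-Sternberg markers, TRAF1 among them, reached 1 FPKM in each Hodgkin line, with summed levels of 420 to 1776 FPKM, against 29.8 to 47.1 FPKM in Namalwa and Reh, and 299 to 380 FPKM in PMA-treated Reh. In PMA-treated Reh 4 of the 7 markers reached 1 FPKM and ID2 made up most of the sum, at 246 and 333 FPKM, with CCL17 and MSC listed at 0. The 8 B-lineage markers summed to 2.55 to 37.3 FPKM in the Hodgkin lines and to 982 to 1420 FPKM in the other groups. Of these markers, 5 reached a mean of 1 FPKM in KM-H2, 2 in L1236 and 1 in L428. MS4A1 (CD20) was listed at 0 in all 3 Hodgkin lines, but was also at most 0.328 FPKM in Reh with and without PMA. PAX5, a B-lineage transcription factor, made up most of the sum in L1236 at 33.8 and 19.8 FPKM, below all libraries of untreated Reh (64.1 and 52.5) and Namalwa (77.8 and 56.6) and above those of PMA-treated Reh (11.3 and 17.4). The depth of the libraries in reads is unknown, but the smallest steps of the values put the deepest library at 6.03 times the shallowest, KM-H2. The first libraries of the 3 Hodgkin lines, and likewise the second, deviated together from their line means. TNFRSF8 was the higher in the first and FAS the higher in the second library of each Hodgkin line. With either set of Hodgkin libraries alone, the calls of all 9 tested receptors over the Hodgkin lines together were kept.

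The ligands of 3 of the receptors that were high in the Hodgkin lines were at or near 0. CD40LG, FASLG and TNFSF11 (RANKL), the ligands of CD40, FAS and RANK, did not exceed 0.184 FPKM in any library. TNFSF8, the ligand of CD30, was at 17.3 and 20.1 FPKM in Namalwa and at most 2.03 FPKM elsewhere. TNFSF9, the ligand of CD137, was present in every group, at 26.9 and 30.5 FPKM in KM-H2 and 24.6 and 31.6 in L1236, but 8.88 and 9.83 in L428, which was not called (0.87), against 5.39 and 8.79 in Namalwa and 2.26 and 4.05 in Reh (log2 difference of Hodgkin and control lines 1.87, SE 0.18, adjusted p = 2.94e-05). TNF was at 15.7 to 64.5 FPKM in the Hodgkin lines and at 67.7 and 111 FPKM in Reh, but at 0.407 and 0.309 in Namalwa, so that its log2 difference of 1.62 (adjusted p = 0.00018) rested on Namalwa. LTA, which binds the same receptors, was at 29.6 to 116 FPKM in the Hodgkin lines, 6.80 and 10.6 in Reh and 0.412 and 0.188 in Namalwa, with no overlap (3.99, SE 0.16, adjusted p = 1.39e-07). Of the ligands of the BAFF and APRIL receptors, TNFSF13B was higher in the Hodgkin lines (1.20, SE 0.11, adjusted p = 1.59e-05), a call that rested on KM-H2 at 4.91 and 3.63 FPKM, since L1236 (0.38) and L428 (0.93) were not called, and TNFSF13 was highest in L428 at 7.0 and 5.65 FPKM and did not reach a 2-fold difference over the lines (0.87, adjusted p = 0.00063).

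Of 18 ligand genes, 13 were tested, and 7 were higher and 3 lower in the Hodgkin lines, beside 13.7% and 10.9% of all genes, with a median log2 difference of 1.20 beside 0.02 over all genes. The highest rises were those of LTA, TNFSF14 (LIGHT, 2.44) and TNFSF10 (TRAIL, 2.38). LTB, the partner of LTA in the membrane-bound lymphotoxin, fell by 4.27, TNFSF8 by 1.83 and TNFSF4 (OX40 ligand) by 1.11. The fall of TNFSF4 rested on Reh, at 10.3 and 14.2 FPKM, since Namalwa at 0.187 and 0.0709 FPKM lay below every Hodgkin library. TNFSF8 in turn was carried by Namalwa and listed at 0 in Reh. LTB stood at 63.5 and 91.2 FPKM in Reh, 11.4 and 4.24 in Namalwa and at most 0.980 FPKM in the Hodgkin lines. After PMA 3 ligand genes were higher, LTA (3.31, from 6.80 and 10.6 to 79.6 and 108 FPKM), TNF (1.78, to 231 and 389 FPKM) and TNFSF12 (TWEAK, 1.54), and TNFSF10 (-1.82) and CD70 (-1.45) were lower, beside 10.5% higher and 11.8% lower over all genes, with a median of -0.01 beside -0.03.

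**Figure D4:**
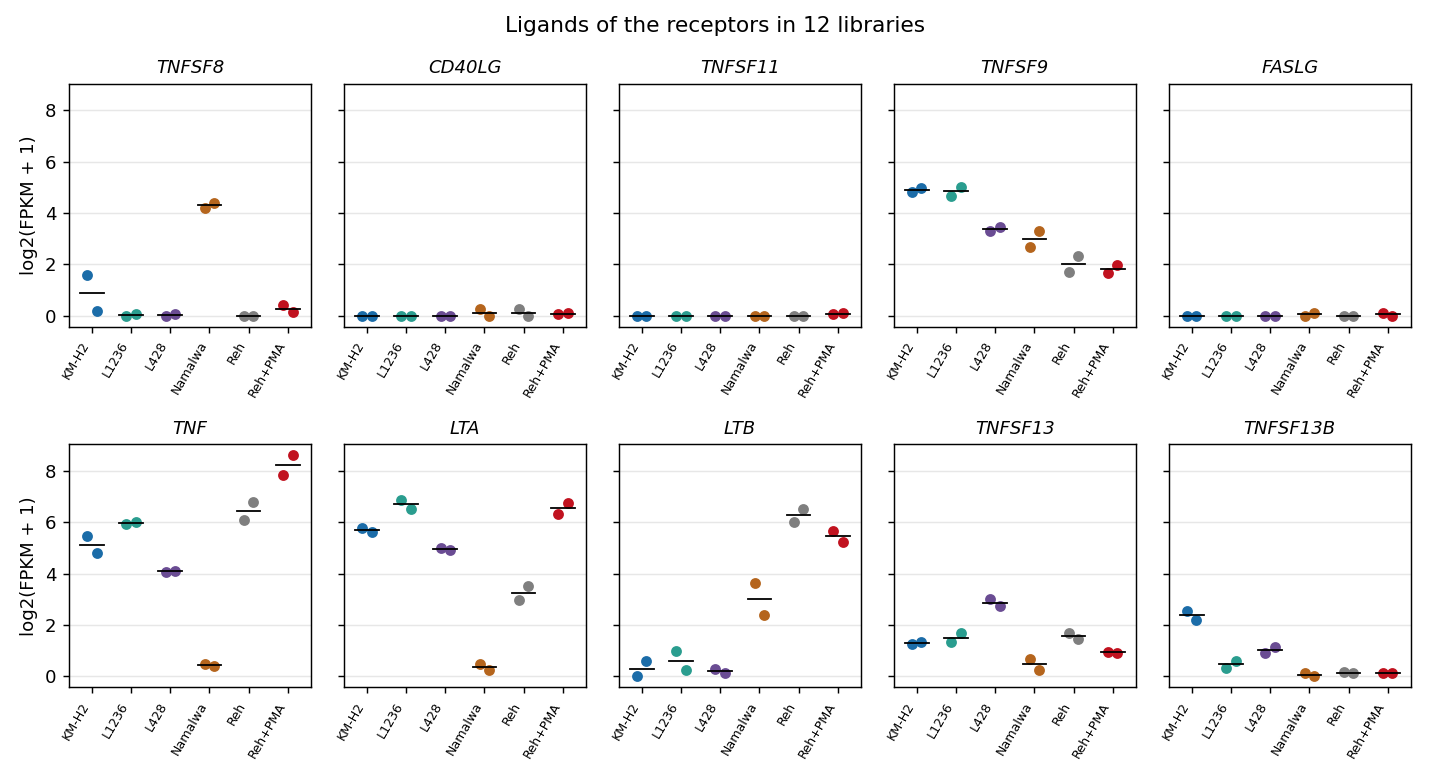
Level of 10 ligand genes of the receptors as log2(FPKM + 1), with a point for each of the 2 libraries and a bar for the mean of each group. CD40LG, TNFSF11 and FASLG are near 0 in all groups, LTA is high in the Hodgkin lines and PMA-treated Reh, and LTB is high in Reh with and without PMA.

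Other receptors of the family gave a mixed picture. Of 19 genes, 14 were tested, and 3 were higher and 3 lower in the Hodgkin lines, beside 13.7% and 10.9% of all genes (median log2 difference 0.51 against 0.02). TNFRSF14 (HVEM) was higher in all 3 lines, with 9.24 to 15.9 FPKM against 2.78 to 8.17 in the controls (1.17, SE 0.16, adjusted p = 0.000222). This 2-fold call rested on Namalwa, with a mean of 2.94 FPKM, since the Hodgkin line means of 11.8 to 12.6 FPKM were less than 2-fold above the mean of 7.65 in Reh. TNFRSF4 (OX40), a receptor of activated T cells, was a feature of KM-H2, at 38.1 and 45.3 FPKM and at most 0.375 in every other library. The call over the lines (1.66) rested on KM-H2, the line with the CD3D and CD3G levels given above. The part of those transcripts in the TNFRSF4 level was not tested. TNFRSF12A, the TWEAK receptor, was also called (1.17, adjusted p = 0.0243), although its KM-H2 duplicates were 1.23 and 9.44 FPKM and no single Hodgkin line was called against the controls (adjusted p = 0.0697 to 0.119). TNFRSF21 (death receptor 6, -2.69), RELT (-1.33) and CD27 (-1.21) were lower. CD27 was instead higher in L1236 (1.18), at 17.6 and 9.55 FPKM, and the controls were unlike, at 23.6 and 38.0 in Namalwa and 0.267 and 0.183 in Reh. Next to TNFRSF1A on chromosome 12 lies LTBR, the lymphotoxin beta receptor, 32930 bases away, and it was listed at 0 in 11 of 12 libraries and at 0.0767 FPKM in the other. After PMA 5 of these receptors were higher and 2 lower, beside 10.5% and 11.8% of all genes (median 0.22 against -0.03). TNFRSF12A rose from 0.951 and 1.35 to 33.0 and 41.9 FPKM (4.16, adjusted p = 0.000898), NGFR by 3.17 with unequal duplicates of 5.52 and 29.7 FPKM, and TNFRSF10D by 2.03, while TNFRSF14 (-1.32) and TNFRSF21 (-1.19) were lower.

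Among 20 adaptor and signalling genes, all tested, 6 were higher and 1 was lower in the Hodgkin lines, beside 13.7% higher and 10.9% lower over all genes (median log2 difference 0.50 against 0.02). TRAF1, an adaptor of CD30 and CD40 and itself an NF-kappaB target, was at 10.5 to 111 FPKM in the Hodgkin lines and at 0.804 to 1.02 FPKM in the controls (4.16, SE 0.16, adjusted p = 1.25e-07). CFLAR, which encodes the inhibitor of death receptor signalling c-FLIP, ranged from 20.7 to 224 FPKM in the Hodgkin lines and from 4.30 to 8.22 in the controls (3.56, SE 0.18, adjusted p = 4.17e-07), in the same lines in which FAS was high. BIRC3, encoding cIAP2, was higher (2.55), but Namalwa at 67.6 and 43.7 FPKM was within the range of the Hodgkin lines. TRAF2 was lower over the lines (-1.54), and this rested on L1236, where it was listed at 0 in both libraries, against 12.2 to 26.6 FPKM in KM-H2, L428 and the controls. After PMA 6 of the 20 were higher and 2 lower, beside 10.5% and 11.8% of all genes (median 0.69 against -0.03). TRAF1 rose to 18.5 and 14.8 FPKM (3.20, adjusted p = 4.39e-05), BIRC3 by 2.12 and TRAF4 by 1.65, while IKBKG (-1.84) and TRAF5 (-1.28) were lower. CFLAR did not change past the threshold with PMA, at 8.58 and 7.69 FPKM after treatment and 8.22 and 7.11 before.

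Of 10 NF-kappaB genes, 5 were higher in the Hodgkin lines and the other 5 were not called (median log2 difference 1.06), where 13.7% of all genes were higher. NFKB2, the subunit processed in the non-canonical pathway downstream of CD40 and RANK, was at 54.1 to 147 FPKM in the Hodgkin lines and at 5.83 to 18.2 FPKM in the controls (2.78, SE 0.19, adjusted p = 2.42e-06). NFKBIA, the inhibitor IκBα and a feedback target, was higher by 1.90 (adjusted p = 1.28e-05), but the controls were unlike, at 19.1 and 20.6 FPKM in Namalwa and 67.5 and 77.3 in Reh, and L428 at 77.4 and 121 FPKM was less than 2-fold above Reh. RELB was higher by 1.56, but Namalwa at 32.5 and 19.0 FPKM lay among the Hodgkin lines. After PMA, RELB (2.48, from 2.13 and 1.04 to 13.3 and 12.8 FPKM) and NFKB2 (1.80) were higher, 2 of 10 genes beside 10.5% of all genes (median 0.51 against -0.03).

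**Figure D5:**
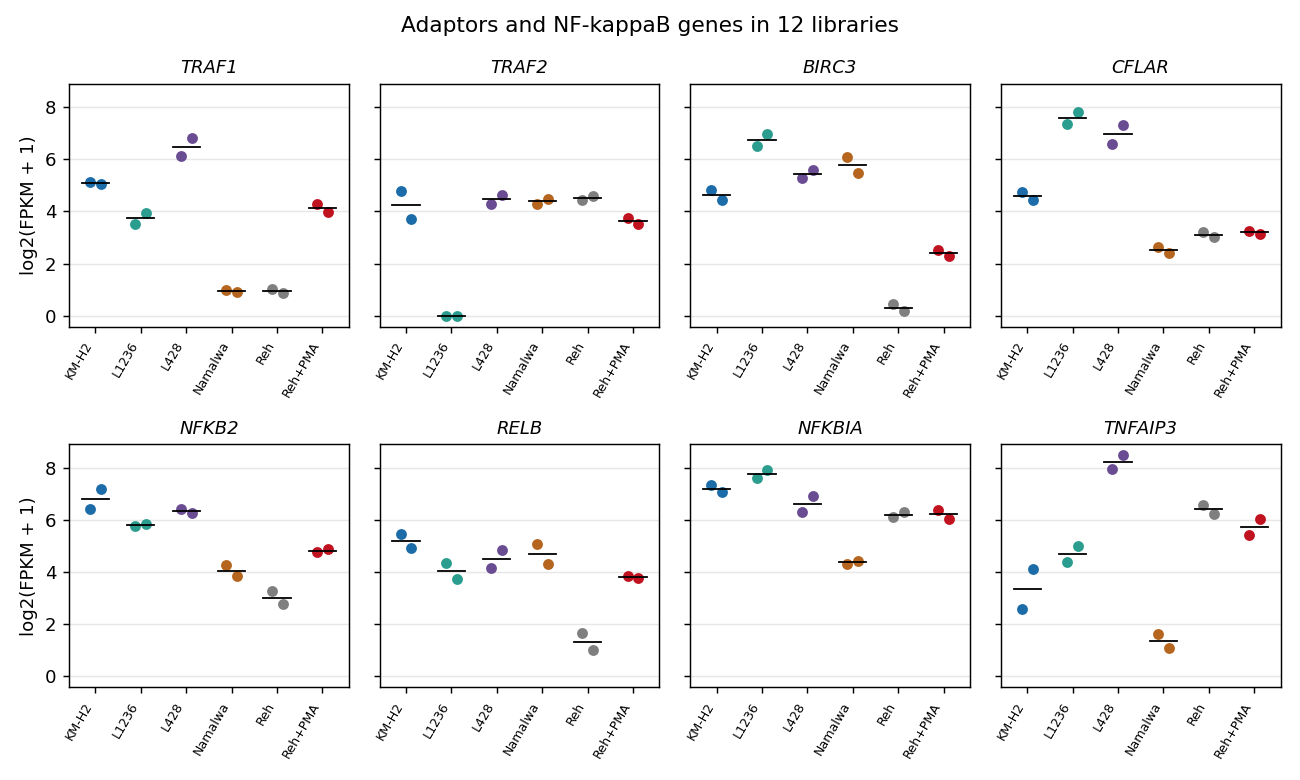
Level of 4 adaptor or signalling genes and 4 NF-kappaB genes as log2(FPKM + 1), with a point for each of the 2 libraries and a bar for the mean of each group. TRAF1 and NFKB2 are higher in the 3 Hodgkin lines and in PMA-treated Reh than in untreated Reh and Namalwa, CFLAR is high in the Hodgkin lines alone, and TRAF2 is listed at 0 in L1236.

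The genes most like each receptor were taken as the 2 with the highest Pearson r over the 12 libraries, among 11594 expressed genes. Duplicates share a line, so these values describe 6 groups more than 12 independent points. TNFRSF8 was followed by MARCKS (r = 0.994), a protein kinase C substrate with group means of 34.0, 39.3 and 94.8 FPKM in KM-H2, L1236 and L428, and by the non-coding gene LINC01605 (r = 0.989). TNFRSF11A was followed by CD274, the checkpoint ligand PD-L1 (r = 0.989), with means of 2.55, 31.5 and 5.51 FPKM in KM-H2, L1236 and L428, and by the cytokine gene IL6 (r = 0.985), at 3.23, 51.8 and 7.32 FPKM. TNFRSF17 was closest to ZNF239 (r = 0.972) and to FCRL1, a B-cell surface receptor gene (r = 0.966). For FAS the nearest were SNX11 and NKAP (r = 0.9753 and 0.974), for TNFRSF9 PDLIM5 and ELK4 (0.981 and 0.970), and for CD40 COPA and SLC9A5 (0.965 and 0.959). TNFRSF1A was nearest to ZNF71 and CDK14 (0.981 and 0.977), TNFRSF1B to ASH2L and SP4 (0.9748 and 0.967), and TNFRSF13C to CDKN2C, a cell cycle inhibitor, and SMCHD1 (0.956 and 0.937).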

How the data were processed

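Total RNA of each group was depleted of ribosomal RNA (Ribo-Zero) and turned into 2 strand-marking Illumina libraries (TruSeq Stranded Total RNA). Per the labels, the authors' processing used TopHat2 2.0.11, Cuffnorm 2.2.1 and hg19. The deposited values are FPKM per gene, which the authors normalised with Cuffnorm, and whether fragments were assigned by strand is not given in the sources used here. FPKM values hold no library depth. The smallest steps of low values gave relative depths, and precision is therefore limited by 2 libraries per group.

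Values were transformed as log2(FPKM + 1), which understates changes of low genes. Genes with at least 1 FPKM in at least 2 of 12 libraries (14679 of 26210, 9 of the 10 receptors) were fitted with limma 3.58.1 in R 4.3.3, with 1 mean per group, an intensity trend and Benjamini-Hochberg adjustment over all tested genes. Calls needed an adjusted p under 0.05 and a 2-fold change. The 15 contrasts between groups came from the same fit, each adjusted on its own. A two-sided exact permutation test over the 5 line means was added. The procedure was checked on simulated data. The columns carry suffixes 0 and 1, not the replicate numbers of the titles, and are called the first and second library.

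The members and gene lists were chosen with earlier results of these data known. All 10 receptors are named, with their ligands, and from each list up to 3 called genes with the largest change per direction. Alternatives were another pseudocount, other filters, quantile normalisation, median centring, no trend, no fold threshold, fits to the compared groups alone and leaving out each library. Fits with a block for the column suffix and with 1 Hodgkin library per line were added after seeing the data. Gene positions are from GENCODE v44lift37 (hg19) and promoter sequences from RefSeq (GRCh38.p14), matched to hg19 by sequence.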

Additional observations from a re-analysis of the deposited data

Results flagged for a closer look

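The effect relative to the control lines differed between Hodgkin lines for 4 of the 9 receptors tested in KM-H2 and L1236, for 5 in KM-H2 and L428 and for 5 in L1236 and L428, by the limma contrast of the 2 lines on the log2(FPKM + 1) scale. Over all genes, 26.6% were called between KM-H2 and L1236, 26.6% between KM-H2 and L428 and 21.9% between L1236 and L428. These differences are given as the first line minus the second, with adjusted p-values over all genes. They describe the lines and the spread of their duplicates.

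TNFRSF11A differed between all pairs, by -3.38 for KM-H2 and L1236 (adjusted p = 3.57e-06), by -1.23 for KM-H2 and L428 (adjusted p = 0.00228) and by 2.16 for L1236 and L428 (adjusted p = 9.21e-05). CD40 also differed between all pairs, by -1.36 (KM-H2 and L1236, adjusted p = 0.00139), 1.23 (KM-H2 and L428, adjusted p = 0.00256) and 2.59 (L1236 and L428, adjusted p = 3.37e-05). TNFRSF9 was highest in KM-H2, by 1.35 over L1236 (adjusted p = 0.0117) and by 2.55 over L428 (adjusted p = 0.000346), and higher in L1236 than in L428 by 1.19 (adjusted p = 0.0244). TNFRSF8 was lower than in L428 in KM-H2 (-1.03, adjusted p = 0.0254) and in L1236 (-1.01, adjusted p = 0.0319). TNFRSF1A was less reduced in KM-H2 than in L1236 (1.33, adjusted p = 0.00673) and L428 (2.16, adjusted p = 0.000448). TNFRSF17 was less reduced in L1236 than in L428 (1.13, adjusted p = 0.0286).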

How the results depend on the processing

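Of 1230 receptor values recomputed under the alternatives, 1200 kept their direction and their side of the threshold, 21 were no longer called, 7 became called and 2, neither of them a call, changed sign. Of the 1200, 629 came from leaving out 1 library. Where that library lies outside the comparison, the log2 difference cannot change, so part of the share kept was fixed in advance. The changes of sign were FAS in Namalwa against Reh, -0.40 to 0.52 when 1 library was left out and lowest without the first Reh library, and TNFRSF11A with PMA, -0.073 to 0.17 and lowest without the first treated library. Without a fold threshold the counts of all genes called were 8126 for the Hodgkin lines together (3614 with it), 6920 for KM-H2 (4456), 6662 for L1236 (4251) and 6882 for L428 (4404). Leaving out 1 library at a time gave 1968 to 3395 genes called with PMA (3265 with all libraries) and 3 to 5 receptors called (5), the fewest without the first Reh or the first treated library. TNFRSF17 in L1236 became a call with quantile normalisation (-1.0), median centring (-1.01) or no fold threshold, and also without the second L1236 library (-1.17, adjusted p = 0.0370) or the first Namalwa library (-1.15, adjusted p = 0.00329), by limma. TNFRSF13C with PMA was not called with quantile normalisation (-0.95), a pseudocount of 0.1 (-1.69) or no filter (-1.22), and TNFRSF1B was not called in Namalwa and Reh with quantile normalisation (-0.93); the cause was not tested. Median centring moved the median of all genes in L1236 from -0.01 to -0.14, and no receptor lost its call.

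No fit with the replicate numbers of the titles as a block was made, because the columns carry suffixes in their place. Deviations from the group means correlated by suffix between the Hodgkin lines (r of 0.30 to 0.68 across genes, which are not independent replicates) and by -0.045 to 0.36 in other pairs. A block for the suffix, chosen after seeing the data, changed none of 54 receptor calls. Each group holds 1 library of each suffix, so this block cannot change a log2 difference and alters only its SE. It also fits 1 shift to all groups, so it cannot take up a shift of the Hodgkin lines alone. With either set of Hodgkin libraries alone, the 9 receptors kept their calls over the Hodgkin lines together. The calls of each line also held there, but a line then has 1 library, which is assumed to vary like the other groups. TNFRSF1B gave no value with a filter of 5 FPKM, and fits to the compared groups alone gave none for TNFRSF8 and TNFRSF11A in either Reh comparison, TNFRSF17 with PMA and TNFRSF9 in Namalwa against Reh, since these genes then fell below the filter. Absolute depth is unknown, so receptors listed at 0 have no stated limit.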
